A study of Mus musculus with 9 samples.

Results

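Genomic imprinting silences 1 parental copy of a gene, and the genes so marked include many that set the size of the embryo and the placenta. The 10 imprinted growth genes described here were Grb10, Igf2, H19, Dlk1, Meg3, Peg3, Cdkn1c, Mest, Ndn and Plagl1. They were picked by symbol from the 24972 gene names of the table, and Grb10 was the starting point because its RNA is low in 1 of the treatment groups. The question was whether other imprinted genes moved with it. Grb10 values in that group are therefore given as a description, without a test. Of the 10 genes, 7 were among the 13179 genes that reached a value of 10 in at least 3 libraries and could be tested. H19, Dlk1 and Plagl1 were too low.

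The cells were Neuro2a, a neuroblastoma line of mouse neural crest origin with wild-type genotype, grown in medium with serum. The control group got the vehicle dimethyl sulfoxide (DMSO) alone, the LCX group 500 nM and the HCX group 1 mM of 4-methylumbelliferyl-β-D-xylopyranoside, a xyloside on which cells build free glycosaminoglycan chains instead of building them on core proteins. The sample labels give 48 h of treatment for all groups, while a figure legend of the study gives a longer time. Polyadenylated RNA was sequenced from 3 samples per group, and nothing states that they came from separate cultures, so the p-values measure the spread between these samples, which may be technical.

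The libraries summed to between 34949840 and 36667123 normalized counts, and 12832 to 13040 genes reached 10 in each. The median log2 fold change of all genes tested was -0.04 between HCX and DMSO and 0.00 between HCX and LCX. All 13 neuroblast markers examined passed the filter, among them Hand2, Dbh and Th. Their summed level was 82531 to 84867 in DMSO, 80930 to 83915 in LCX and 92117 to 95554 in HCX. In HCX against DMSO 4 of them were called higher, led by Hand2 (log2 fold change 0.52), and 1, the growth cone protein Gap43, was called lower, beside 5.73% of all genes higher and 13.5% lower. In bulk RNA, fewer cells of a type and less RNA per cell cannot be told apart.

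Imprints are kept as methylation of CG dinucleotides at control regions, which the zinc finger protein Zfp57 reads together with Trim28. Grb10 encodes an adaptor that binds the insulin and IGF1 receptors and dampens their signal. In mouse most tissues express the maternal copy of Grb10, and neurons the paternal copy from other start sites. Methylation was not measured here, so the start sites are shown from the reference genome only, with each CG dinucleotide in capitals. The sequences come from RefSeq on GRCm38.p6 and run from 250 bases before to 50 bases after the start, written 5′ to 3′ on the gene's strand. They are the sites of Grb10, 1 of the 3 listed sites of Mest, which was lower in HCX, and the site of Peg3, which was higher.
Grb10 start 1, chr11:12037371-12037670, minus strand: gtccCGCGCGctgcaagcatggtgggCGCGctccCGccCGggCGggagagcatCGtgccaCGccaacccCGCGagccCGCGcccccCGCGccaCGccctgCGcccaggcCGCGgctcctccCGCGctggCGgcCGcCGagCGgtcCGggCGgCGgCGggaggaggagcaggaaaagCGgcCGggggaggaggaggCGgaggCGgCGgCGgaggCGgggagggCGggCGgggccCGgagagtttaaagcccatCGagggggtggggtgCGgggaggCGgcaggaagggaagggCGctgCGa
Grb10 start 2, chr11:12027922-12028221, minus strand: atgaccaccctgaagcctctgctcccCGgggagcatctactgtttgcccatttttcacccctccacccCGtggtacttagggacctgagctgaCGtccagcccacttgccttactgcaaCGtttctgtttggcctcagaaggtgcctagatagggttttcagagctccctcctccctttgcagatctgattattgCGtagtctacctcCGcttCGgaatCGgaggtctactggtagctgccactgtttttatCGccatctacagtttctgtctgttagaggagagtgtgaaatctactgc
Mest start 2, chr6:30737800-30738099, plus strand: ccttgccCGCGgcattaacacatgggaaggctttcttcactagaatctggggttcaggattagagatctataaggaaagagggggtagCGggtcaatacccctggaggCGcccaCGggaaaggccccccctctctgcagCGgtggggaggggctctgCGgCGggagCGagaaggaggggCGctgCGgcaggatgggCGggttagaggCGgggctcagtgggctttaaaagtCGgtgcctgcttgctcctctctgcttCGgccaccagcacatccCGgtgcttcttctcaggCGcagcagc
Peg3, chr7:6730370-6730669, minus strand: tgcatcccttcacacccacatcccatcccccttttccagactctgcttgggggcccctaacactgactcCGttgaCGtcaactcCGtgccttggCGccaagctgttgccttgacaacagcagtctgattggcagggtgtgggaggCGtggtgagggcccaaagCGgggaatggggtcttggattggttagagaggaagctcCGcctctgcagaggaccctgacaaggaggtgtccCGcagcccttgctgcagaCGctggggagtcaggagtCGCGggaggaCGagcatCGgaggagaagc

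The Grb10 sites differ in base composition. Start 1 holds 45 CG dinucleotides in 300 bases, a number that 1.93% of the 32851 RefSeq promoters of this length reach or exceed. Start 2 holds 9, Mest start 2 holds 17 and Peg3 holds 13, and the median of all promoters is 7. Zfp57 binds TGCCGC when its CG is methylated. This hexamer, searched on both strands (TGCCGC or GCGGCA), occurs once in Grb10 start 1, at 2 places in Mest start 2 and in neither of the other windows shown. Over the 8 members with a RefSeq promoter, 12 of 15 windows exceed the median number of CG dinucleotides and 6 hold the hexamer, as do 11.6% of all promoters. The hexamer itself holds a CG, and the windows were not compared with promoters of like CG number. Mest starts 2 and 3 overlap almost fully and are both among these 6 windows. Mest start 1, which is not shown, holds 8 CG dinucleotides and lacks the hexamer. A match is a description of the letters and not a measured binding site. The windows were taken at start sites, and control regions were neither located nor searched. A match or its absence therefore says nothing about the imprint of a gene.

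Grb10 RNA was low in all 3 HCX libraries. In DMSO its normalized counts were 72.9, 53.6 and 76.2. In LCX they were 58.6, 64.5 and 38.3, and in HCX 16.1, 11.5 and 12.8. The highest HCX library was below the lowest library of either other group, while LCX and DMSO overlapped.

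The means were 67.6 ± 12.2 in DMSO, 53.8 ± 13.7 in LCX and 13.5 ± 2.36 in HCX (SD, n = 3), so that HCX stood at 19.9% of DMSO. On the log2(value + 1) scale the difference was -2.24 (SE 0.31) from DMSO and -1.90 (SE 0.31) from LCX, which placed Grb10 25th and 43rd from the lowest among 13179 genes. These values chose the gene and carry no test. The choice did not use the difference between LCX and DMSO, but HCX was set against the values of these groups. Between LCX and DMSO the log2 fold change was -0.34 (95% interval -0.99 to 0.31, adjusted p = 0.879 by limma), within the spread of the replicates. Under all 18 alternative settings the Grb10 difference between HCX and DMSO lay between -2.40 and -1.72.

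**Figure D1:**
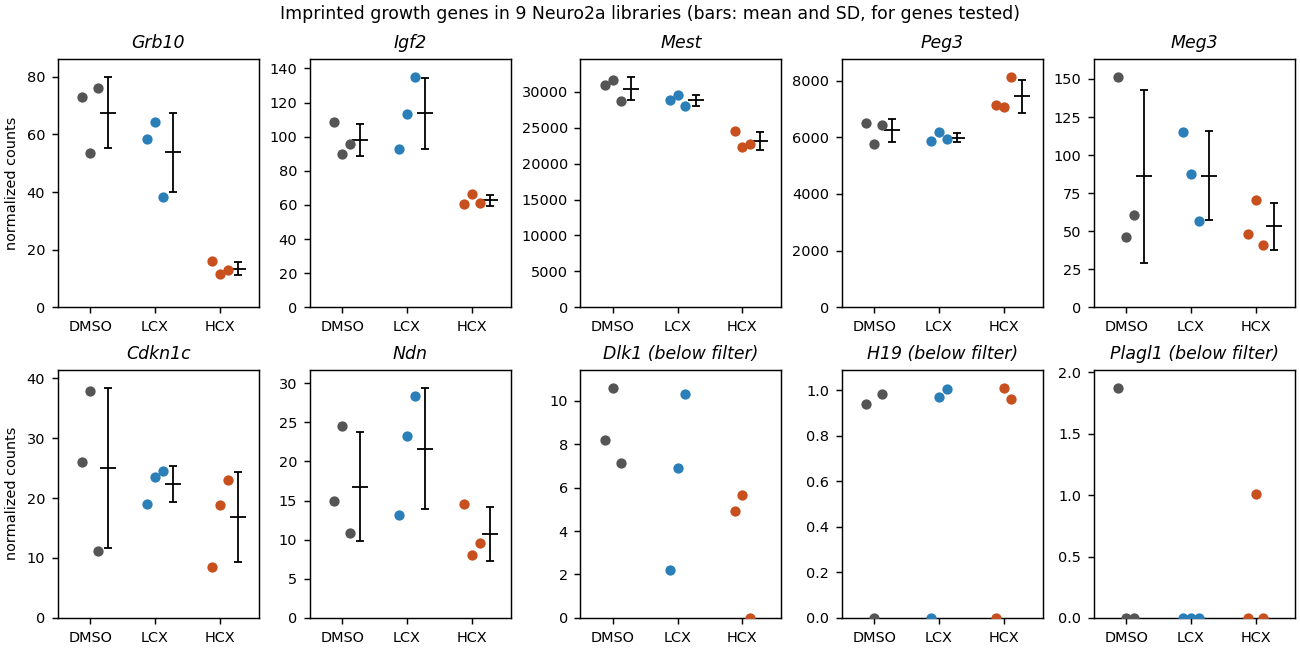
Normalized counts (vertical axis, linear, from 0) of the 10 imprinted growth genes in the 9 libraries, grouped by treatment, with 1 point per library and, for the 7 genes tested, the mean and SD beside the points. Grb10, Igf2 and Mest have 3 HCX points below all others and Peg3 has 3 HCX points above all others, while Meg3, Cdkn1c and Ndn overlap between groups and H19, Dlk1 and Plagl1 lie near 0.

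Grb10 lies on chromosome 11, from 11930508 to 12038683 on the minus strand of GRCm38 (mm10), with 22 blocks of exons that no other annotated gene overlaps. The table holds 10 genes within 1 Mb, Grb10 included, and 4 of them passed the filter. Vwc2, Spata48, 4930512M02Rik and Cobl, which is the neighbour on the far side, were listed at 0 in all 9 libraries. Besides Grb10, the genes tested there were Ddc, Fignl1 and 1700042O10Rik, and Ddc alone was called, lower in HCX. Of all genes, 13.5% were called lower against DMSO and 8.95% against LCX. With so few genes tested, the call does not set the region apart from all genes. Ddc lies 32364 bases away and encodes the aromatic L-amino acid decarboxylase that makes dopamine and serotonin. In mouse Ddc is imprinted in the developing heart.

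Ddc normalized counts were 62.8, 64.6 and 75.0 with DMSO alone, 92.5, 62.8 and 72.3 with LCX and 51.1, 27.4 and 30.0 with HCX. All 3 HCX libraries were below every other library. Of all genes, 21.8% had HCX below DMSO without overlap, and 18.2% had HCX below LCX without overlap. The log2 fold change was -0.93 against DMSO (SE 0.27, adjusted p = 0.0196 by limma) and -1.08 against LCX (adjusted p = 0.00892). Against DMSO the call was lost without DMSO replicate 3 (adjusted p = 0.0659), HCX replicate 2 (0.0808) or HCX replicate 3 (0.0626), and without the filter on low values (0.0564), and against LCX without LCX replicate 1 (0.0584).

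Fignl1, a DNA repair ATPase beyond Ddc and 121546 bases from Grb10, had means of 4131 ± 466 in DMSO and 4036 ± 179 in HCX (log2 fold change -0.03, 95% interval -0.16 to 0.10, adjusted p = 0.805). The antisense transcript 1700042O10Rik, which lies inside Ddc on the other strand, had means of 8.49 ± 4.84 and 8.58 ± 7.21. Its interval, -1.57 to 1.40 on the log2 scale, includes the log2 fold change of Ddc.

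**Figure D2:**
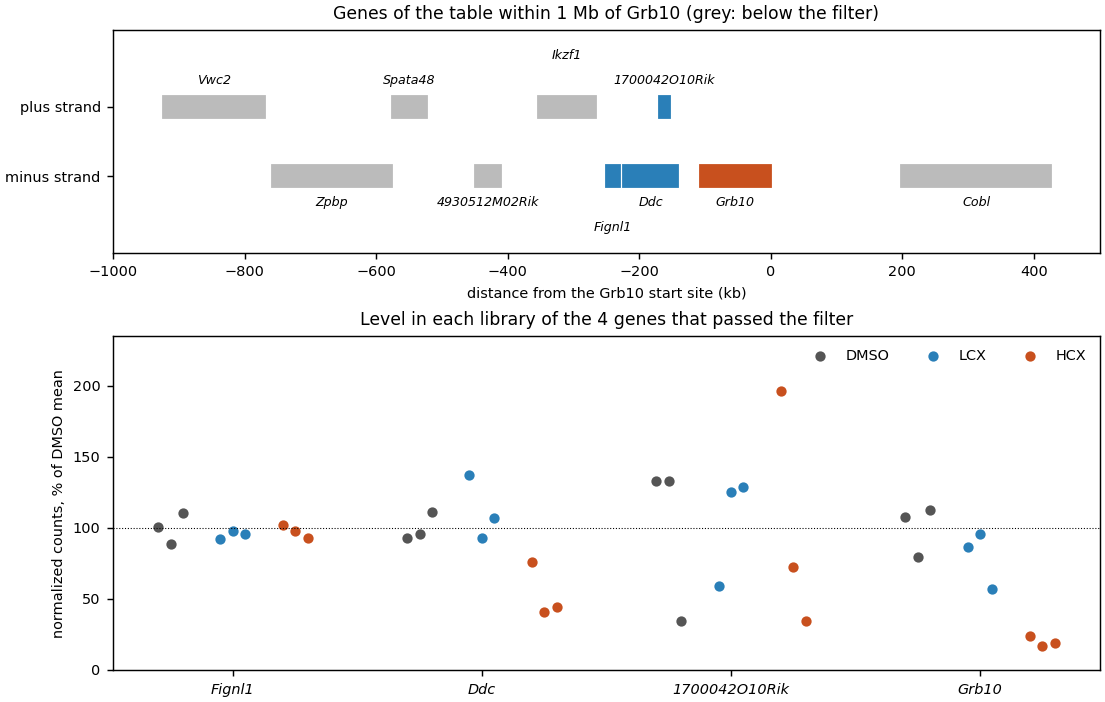
The upper panel maps the genes of the table within 1 Mb of Grb10 by strand and distance from its start site (kb), and the lower panel gives the level of the 4 genes tested in each library as a percent of the DMSO mean, with 1 point per library. The HCX points of Grb10 and Ddc lie below all other points of the same gene, those of Fignl1 lie among the others and those of 1700042O10Rik scatter widely.

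Grb10 is left out of the counts that follow. Among the other 6 members tested, 2 fell and 1 rose in HCX against DMSO, and 3 did not pass the test, beside 13.5% of all genes tested called lower and 5.73% called higher. Against LCX 2 fell and 1 rose as well, beside 8.95% and 8.35% of all genes. The calls were those of Igf2 and Mest, lower, and Peg3, higher, in both comparisons, which share the HCX libraries. The groups of these genes did not overlap, 2 lower and 1 higher, beside 21.8% and 11.0% of all genes against DMSO and 18.2% and 18.3% against LCX. The median log2 fold change of the 6 members without Grb10 was -0.51 against DMSO and -0.58 against LCX, beside -0.04 and 0.00 for all genes tested. Both medians lie between the values of Meg3 and Cdkn1c, which were not called and whose intervals include 0. They therefore do not show a fall shared by the members.

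The share of all genes called lower depended on the scaling. Of the genes called between HCX and DMSO, 70.2% were lower with the deposited values, 50.3% after median-of-ratios (RLE) scaling and 42.5% after scaling to equal library sums. Of the 6 members, 2 were lower and 1 higher after RLE scaling, and 1 was lower and 1 higher with equal sums, where Igf2 was lost.

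Mest encodes an alpha/beta hydrolase of the endoplasmic reticulum, is transcribed from the paternal copy and was the most abundant member. Its normalized counts were 30936, 31660 and 28653 with DMSO alone, 28826, 29522 and 28049 with LCX and 24518, 22273 and 22680 with HCX. The HCX libraries were below all others. The means were 30416 ± 1570, 28799 ± 737 and 23157 ± 1196 (SD, n = 3), and HCX stood at 76.1% of DMSO.

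Mest fell by 0.39 on the log2 scale against DMSO (SE 0.05, adjusted p = 1.4e-05 by limma) and by 0.32 against LCX (SE 0.05, adjusted p = 0.000166). Both calls held under all 18 alternatives. The difference between LCX and DMSO was -0.08 (95% interval -0.18 to 0.02). Copg2, a coatomer subunit on the opposite strand, covers 23.1% of the exonic bases of Mest, and the sources do not say whether reads were counted by strand. Copg2 itself had means of 2945 ± 138 and 3013 ± 160 (log2 fold change 0.03, adjusted p = 0.743).

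Igf2, the paternally expressed fetal growth factor that signals through Igf1r and Insr, was low in this line. Its normalized counts were 108, 89.6 and 95.9 with DMSO alone, 92.8, 113 and 135 with LCX and 60.3, 66.4 and 61.1 with HCX. Again the HCX libraries were below all others, and LCX and DMSO overlapped.

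Igf2 fell by 0.63 on the log2 scale against DMSO (SE 0.20, adjusted p = 0.0297) and by 0.83 against LCX (SE 0.20, adjusted p = 0.00669). The call against DMSO was lost in 8 of 18 alternatives, with voom (adjusted p = 0.0866), without the filter on low values (0.0766), with equal library sums (0.0503), with the 6 compared libraries alone (0.0519) and without DMSO replicate 1 (0.110), DMSO replicate 3 (0.0572), HCX replicate 1 (0.0715) or HCX replicate 3 (0.0669). The call against LCX was lost without LCX replicate 3 (0.0511). Igf2 is also uncertain because 63.1% of its 31-base stretches, read on either strand, are found in transcripts of other annotated genes. The same-strand model Gm49394 and the antisense gene Igf2os overlap its exons, and the share of each was not counted. Igf2os was listed at 0 in all 9 libraries.

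Peg3, a paternally expressed zinc finger protein of the fetal brain and placenta, went the other way. Its normalized counts were 6518, 5760 and 6438 with DMSO alone, 5857, 6181 and 5930 with LCX and 7153, 7054 and 8109 with HCX. The HCX libraries were above all others. The means were 6239 ± 417, 5989 ± 170 and 7439 ± 582 (SD, n = 3).

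Peg3 rose by 0.25 on the log2 scale against DMSO (SE 0.06, adjusted p = 0.00384) and by 0.31 against LCX (adjusted p = 0.000806), and both calls held under all 18 alternatives. Usp29, a deubiquitinase gene that starts 147 bases from Peg3 on the opposite strand and is also paternally expressed, had means of 384 ± 36.4 in DMSO and 368 ± 18.0 in HCX (log2 fold change -0.06, adjusted p = 0.774). The difference between the changes of these neighbours was not tested.

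Meg3, a long noncoding RNA of the maternal chromosome 12, varied widely within groups. Its normalized counts were 151, 46.0 and 60.9 with DMSO alone, 115, 87.6 and 56.8 with LCX and 48.2, 70.7 and 41.2 with HCX. DMSO replicate 1 was more than the other DMSO libraries together, and all groups overlapped. The log2 fold change was -0.52 against DMSO (95% interval -1.25 to 0.21, adjusted p = 0.319), and -0.03 without that library (adjusted p = 0.97). Against LCX it was -0.67 (adjusted p = 0.203).

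Cdkn1c, the maternally expressed inhibitor of cyclin-dependent kinases also called p57, had 26.1, 37.8 and 11.1 normalized counts with DMSO alone, 18.9, 23.5 and 24.5 with LCX and 8.47, 18.8 and 23.1 with HCX. The groups overlapped. The log2 fold change against DMSO was -0.50 with an interval of -1.49 to 0.49 (adjusted p = 0.508), and -0.49 against LCX (adjusted p = 0.522). The model Gm44732 on the opposite strand overlaps 30.7% of its exonic bases.

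Ndn, necdin, a paternally expressed growth suppressor of postmitotic neurons, had 15.0, 24.5 and 10.9 normalized counts with DMSO alone, 13.2, 23.3 and 28.4 with LCX and 14.6, 8.06 and 9.54 with HCX. The groups overlapped here too, also between HCX and LCX. The log2 fold change was -0.56 against DMSO (95% interval -1.57 to 0.44, adjusted p = 0.453) and -0.92 against LCX (adjusted p = 0.202). For Meg3, Cdkn1c and Ndn the intervals reach past a 2-fold fall, so these data do not tell whether they changed by that much.

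The remaining members were below the filter. Dlk1, a paternally expressed transmembrane protein of the Notch ligand family, had 8.17, 10.6 and 7.11 normalized counts with DMSO alone, 2.21, 6.92 and 10.3 with LCX and 4.90, 5.66 and 0 with HCX. Its HCX libraries were below its DMSO libraries and overlapped with LCX, at values too low to test. Fitted without the filter over 17185 genes, Dlk1 had a log2 fold change of -1.48 between HCX and DMSO (adjusted p = 0.193). H19, the maternal long noncoding RNA beside Igf2, was listed at 0 in 1 library of each group and did not exceed 1.01. Plagl1, a zinc finger protein expressed from the paternal copy, was listed at 0 in 7 of 9 libraries, with 1.87 in DMSO replicate 1 and 1.01 in HCX replicate 2.

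**Figure D3:**
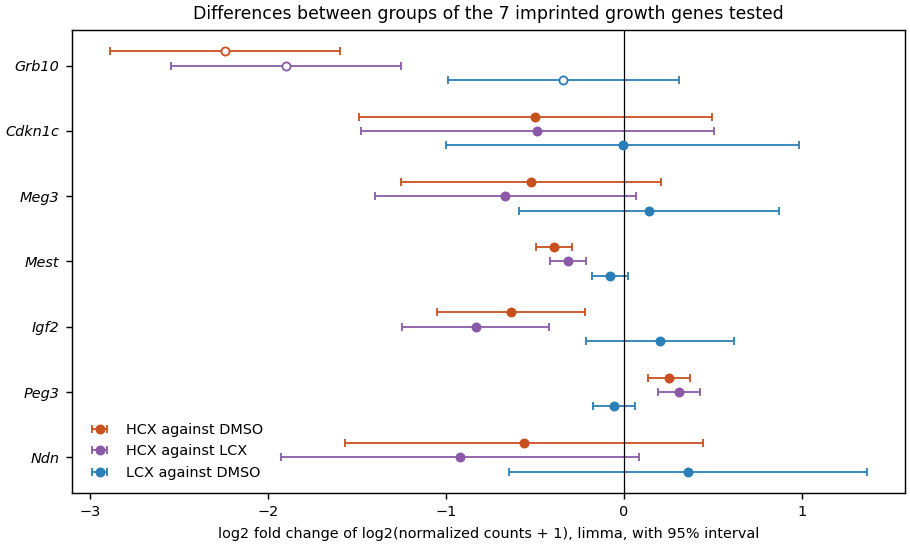
Log2 fold changes (horizontal axis, log2(value + 1) scale, with 95% intervals) of the 7 members tested in the 3 comparisons. Grb10 is drawn with open points because it was chosen for its value in HCX, Mest and Igf2 lie below 0 and Peg3 above 0 against both DMSO and LCX, and every interval between LCX and DMSO includes 0.

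Per kilobase of exonic sequence, the levels in DMSO ran from Mest (7710 ± 398 normalized counts per kb) and Peg3 (468 ± 31.3) down to Igf2 (17.1 ± 1.67), Cdkn1c (12.2 ± 6.56), Grb10 (7.43 ± 1.34), Meg3 (4.75 ± 3.14), Ndn (4.54 ± 1.89) and Dlk1 (1.52 ± 0.31). From Igf2 to Ndn, neighbours in this order did not differ by more than their SDs. The called members thus include the pair of highest level and the precision differs with it. Among all genes, the median 95% interval reached 0.81 to either side on the log2 scale for means under 100, and 0.12 for means over 1000.

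Between LCX and DMSO 0 of the 7 members were called, with limma and with voom, and 0 had an unadjusted p under 0.05. Of all genes 0 were called (0%) and 6.12% had an unadjusted p under 0.05. The log2 fold changes of the members lay between -0.34 (Grb10) and 0.36 (Ndn, 95% interval -0.65 to 1.36).

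Whether imprinted genes as a class followed Grb10 was asked with 52 other imprinted genes, of which 51 are in the table and 33 passed the filter. In HCX against DMSO 5 were called lower and 2 higher (21.2%, beside 19.2% of all genes in either direction), with a median log2 fold change of -0.02. Against LCX 3 were lower and 3 higher (18.2%, beside 17.3%). The share called was near that of all genes in both comparisons. The genes were sorted by the parental copy listed for each in mouse, which can differ between tissues and transcripts and was not measured in these cells. Of the 14 genes tested that were listed as maternally expressed 1 was lower (Gnas). Of the 19 listed as paternally expressed 4 were lower (Rtl1, Impact, Sgce and Sfmbt2) and 2 higher (Peg10 and Peg13). Against LCX the genes were Rtl1, Sfmbt2 and Gnas, called lower, and Peg10, Peg13 and Inpp5f, called higher. The number of genes called lower depended on the scaling and was 2 after RLE scaling and 1 with equal library sums.

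Rtl1, a retrotransposon-derived gene needed for the placenta, fell by 0.45 on the log2 scale (SE 0.07, adjusted p = 0.000309), from 859 ± 30.3 in DMSO to 629 ± 16.8 in HCX, and was called under every alternative. It lies 17467 bases from Meg3 on the opposite strand, where maternal transcripts run antisense to it. Since the sources do not say whether reads were counted by strand, reads of Rtl1 and of these transcripts cannot be told apart. In the same cluster, the maternal noncoding RNAs Rian (203 ± 43.9 in DMSO, 222 ± 11.8 in HCX, adjusted p = 0.537) and Mirg (adjusted p = 0.671) were not called. Of the 4 genes tested in that cluster 1 was lower.

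Peg10, also derived from a retrotransposon and needed for the placenta, rose by 0.27 (SE 0.06, adjusted p = 0.00267), from 4109 ± 142 to 4973 ± 479. Peg13, a noncoding RNA, rose by 0.26 (adjusted p = 0.00984), a call lost without DMSO replicate 3 (0.0524). Gnas, which encodes the alpha subunit of the stimulatory G protein, fell by 0.17 (SE 0.04, adjusted p = 0.00712), and this call was lost with equal library sums (0.0614). Impact, a regulator of translation, fell by 0.16 (adjusted p = 0.0253) and was called in 11 of 18 alternatives.

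The imprinted clusters were also counted, beside 19.2% of all genes called in either direction. In the chromosome 7 cluster of Ndn, 0 of 7 genes tested were called by limma (Ndn, Magel2, Mkrn3, Snrpn, Snurf, Snhg14 and Ube3a), with log2 fold changes from -0.56 to 0.11. In the cluster that holds Igf2 and Cdkn1c, 1 of 8 was called, Igf2 itself. In the Peg3 cluster 1 of 2 was called, Peg3. With so few genes per cluster these counts do not set a cluster apart from all genes.

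**Figure D4:**
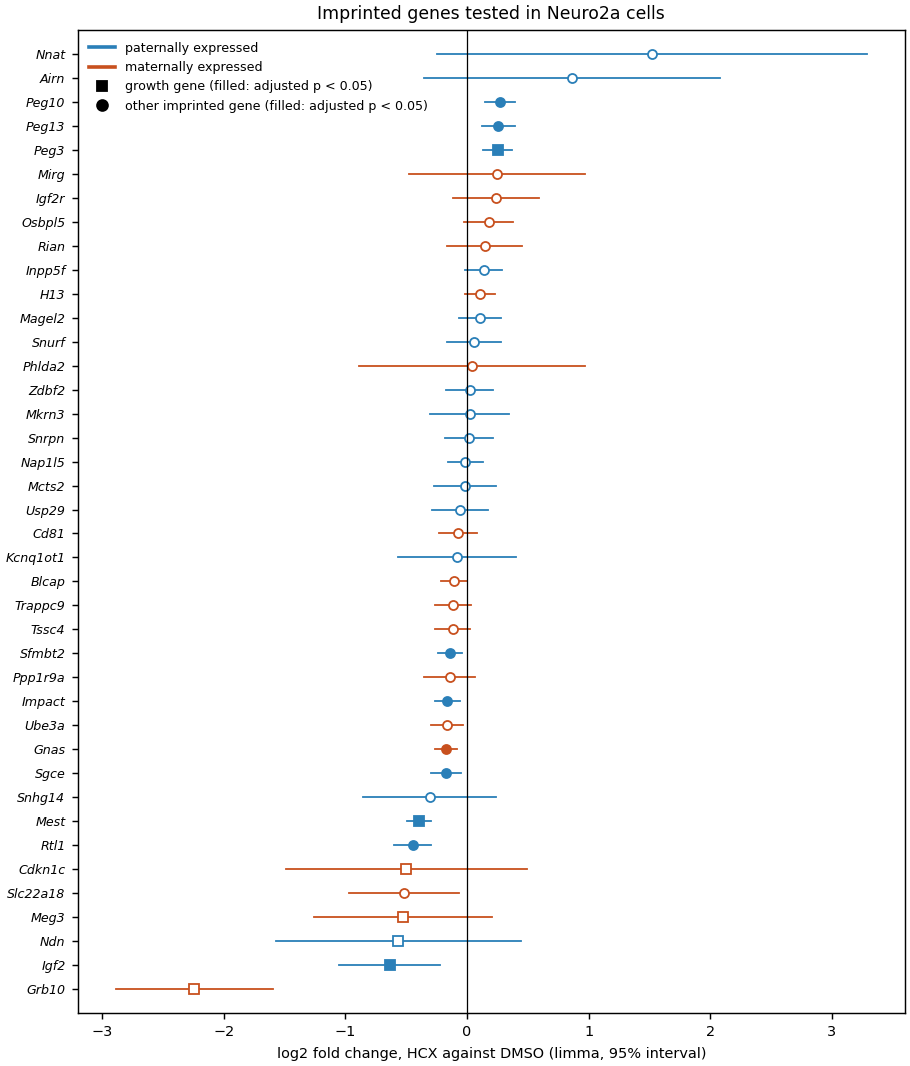
Log2 fold change between HCX and DMSO (horizontal axis, with 95% intervals) of the 40 imprinted genes tested, ordered by value. Colours give the parental copy listed for each in mouse. Squares are growth genes and circles are others, filled where the adjusted p was under 0.05. Grb10 is open because it was chosen for this value and lies apart at -2.24, while the 10 other filled points lie between -0.63 and 0.27.

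Grb10 acts on insulin and IGF signaling, and 30 of 35 genes of that pathway passed the filter. In HCX against DMSO 5 were called lower and 1 higher, 20.0% beside 19.2% of all genes. Among the receptors, Insr had means of 2783 ± 39.2 in DMSO and 2885 ± 193 in HCX (adjusted p = 0.561) and Igf1r 2234 ± 154 and 2537 ± 298 (adjusted p = 0.0781). Igf2r, the imprinted receptor that clears IGF2, had 140 ± 26.8 and 164 ± 18.5 (adjusted p = 0.352). Irs2, a docking protein of both receptors, was the 1 gene called higher, from 17337 ± 399 to 21626 ± 1525 (log2 fold change 0.32, SE 0.05, adjusted p = 0.00017).

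The genes called lower were Igfbp7, Igfbp6 and Igfbp4, which encode IGF binding proteins, the adaptor Shc1, and Nedd4, a ubiquitin ligase that binds Grb10. Igfbp7 fell by 0.51 (SE 0.07, adjusted p = 9.04e-05), from 1139 ± 87.9 to 799 ± 59.1, and Igfbp6 by 0.37 (adjusted p = 0.00275). Among the IGF binding proteins listed, Igfbp2 (log2 fold change -0.03, adjusted p = 0.882 by limma) and Igfbp5 (-0.35, adjusted p = 0.156) were tested and not called. Shc1 fell by 0.25 (adjusted p = 0.00393). Nedd4 was at the threshold (adjusted p = 0.0497). Grb14, the closest relative of Grb10 expressed in these cells, had means of 396 ± 54.7 with DMSO, 372 ± 13.9 with LCX and 452 ± 34.1 with HCX (log2 fold change 0.20, adjusted p = 0.219). Grb7, the other relative, did not exceed 5.22 in any library.

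Of 17 genes that keep imprints, 15 passed the filter and 1 was called between HCX and DMSO, 6.67% beside 19.2% of all genes. It was Trim28, which rose by 0.18 (SE 0.04, adjusted p = 0.00629), from 13169 ± 142 to 14948 ± 754. Zfp57 had means of 1566 ± 79.3 and 1395 ± 115 (adjusted p = 0.0911). The maintenance methyltransferase Dnmt1 had 12613 ± 690 and 12807 ± 807 (adjusted p = 0.809).

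Log2 values over the 9 libraries were compared with those of Grb10 by Pearson correlation, leaving out Gm and Rik identifiers and names turned into dates. The genes most like Grb10 were Tmem147 (0.989), Pirt (0.988), Itga1 (0.982), Ablim1 (0.982) and Tgfb1i1 (0.982). Among the members Mest had 0.94, Igf2 0.80, Meg3 0.54, Ndn 0.50, Cdkn1c 0.25 and Peg3 -0.77, and Ddc had 0.86. From the highest correlation down, Mest ranked 114th, Ddc 720th and Igf2 1274th, so many other genes were as like Grb10. The low HCX values for which Grb10 was chosen enter each correlation. These are descriptions over 9 libraries that fall into 3 treatment groups, with no test.

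Markers of other cell types were checked beside these results. Of 7 mesenchymal markers 4 passed the filter, with sums of 1128 to 1340 in DMSO, 1241 to 1366 in LCX and 903 to 1026 in HCX. Dcn, decorin, which carries a glycosaminoglycan chain, was called lower (523 ± 57.5 to 307 ± 77.3, log2 fold change -0.79), and Col3a1 was listed at 0 in all libraries. Dcn made up most of the difference between the sums. Col1a1 (38.8 ± 13.7 in DMSO, 44.1 ± 15.5 in HCX), Pdgfra (134 ± 12.6 and 103 ± 11.2) and Pdgfrb (522 ± 76.3 and 511 ± 10.4) were not called. The immune and endothelial markers, 3 of 4 above the filter, summed to 255 to 268 in DMSO, 271 to 285 in LCX and 163 to 226 in HCX, and 1 of them, the endothelial adhesion molecule Pecam1, was called lower (log2 fold change -0.44, adjusted p = 0.0375). The part of these differences in the lower values of Grb10, Igf2 and Mest was not tested. Epithelial markers summed to 15.9 at most, with Krt5 and Krt14 listed at 0.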

How the data were processed

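RNA of 9 Neuro2a samples was sequenced as TruSeq stranded mRNA libraries. Per the labels, the authors used Bowtie, TopHat2 and Partek on mm10, with versions and annotation not given in the sources used here. The deposited table holds normalized counts per gene and library, a linear signal from which whole reads could not be recovered, so edgeR and DESeq2 were not used. Depth before normalization is therefore unknown. Of the 24972 names 26 had become dates.

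Values were taken as log2(value + 1), which understates changes of low genes. The genes that reached 10 in 3 or more libraries were fitted with limma-trend (limma 3.58.1, R 4.3.3), 1 term per group over all 9 libraries, with the Benjamini-Hochberg adjustment over 13179 genes per comparison and calls at an adjusted p under 0.05. Intervals are 95% limma intervals. Exact permutation of 3 against 3 cannot go below 0.1 and was not used. The fit was tested on simulated data.

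The members and the 4 gene lists were chosen with earlier results of these data known. Genes named were all members and up to 4 called genes of each list with the smallest adjusted p (the 2 of highest mean where none was called). Also named were Grb7 and Grb14, genes within 1 Mb of Grb10 that passed the filter and the 5 most like Grb10. Gm and Rik identifiers and date names were left out of the ranking by likeness. A few items of the marker list are not reported here. Further genes (receptors, IGF binding proteins, cluster neighbours, overlapping genes, markers and the remaining called genes) were named after their values were seen. Genes were placed with GENCODE M21 on GRCm38. The alternatives were RLE scaling, equal library sums, voom, no filter, at least 10 in every library, a pseudocount of 0.5 or 10, a replicate block, the 6 compared libraries alone and leaving out each library. Figures were drawn with matplotlib 3.10.9.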

Additional observations from a re-analysis of the deposited data

How the results depend on the processing

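Grb10 is left out here because it was chosen for its value in HCX. Of the other 6 members tested, 1 or 2 were called lower and 1 higher under the 18 alternatives, against DMSO and against LCX, a count added after seeing the data. Mest and Peg3 were called throughout, and the call that came and went was that of Igf2. Of the other imprinted genes, 5 were called lower between HCX and DMSO, against 2 with RLE scaling, 1 with equal library sums, 2 with voom, 3 without the filter, 3 with the 6 compared libraries and 3 to 4 on leaving out 1 library. The number called higher, 2, was 1 to 2 on leaving out 1 library. For insulin and IGF signaling the 1 gene called higher became 2 with RLE scaling, 3 with equal sums, 3 with voom and 1 to 2 on leaving out 1 library. Imprint maintenance genes called lower, 0, were 0 to 2 on leaving out 1 library. RLE scaling and equal sums shift all genes relative to DMSO. Voom also scales by library sums, and 41.7% of its calls between HCX and DMSO were lower. The cause of the other changes was not tested. Cdkn1c and Ndn have no value with the filter of 10 in every library.

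Correlations of same-numbered deviations between HCX and DMSO were 0.07, 0.10 and 0.09, beside -0.07 to -0.02 for different numbers. Between HCX and LCX they were -0.10, 0.00 and 0.04, beside -0.07 to 0.07. Between LCX and DMSO they were -0.03, 0.05 and 0.00, beside -0.07 to 0.06. These values do not settle whether the replicate numbers mark pairs. With the replicate block 2 of the 6 members were lower and 1 higher against DMSO, as without it, and 2431 against 2536 genes were called.

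The intervals of Meg3, Cdkn1c and Ndn are wide enough to hold a 2-fold fall, and H19, Dlk1 and Plagl1 were too low to test.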
